A study of Homo sapiens with 32 samples.

Results

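The noncoding snoRNA host genes described here are GAS5, SNHG1, SNHG5, SNHG6, SNHG8, SNHG12, SNHG15, SNHG16, DANCR and ZFAS1, 10 of the 24238 genes in the deposited expression table. They were taken by symbol, through their RefSeq noncoding transcripts, and all 10 were among the 22936 genes kept after a filter on low values. RNA newly made by HUH7 cells, an established human hepatoma line, was labelled with 5-ethynyl uridine (EU), a nucleoside that is incorporated during transcription and lets the labelled RNA be captured. Before release, cells were arrested with 2 mM thymidine for 24 hours, which halts DNA replication, given 2 hours of free growth and then held in mitosis by 0.06 ug/mL nocodazole for 16 hours, a drug that prevents spindle formation. Mitotic cells were detached by shaking, washed free of the drug and plated again. A pulse of 0.5 mM EU lasted 40 minutes at 0, 40, 80, 105, 165 and 300 minutes of release, and an asynchronous culture of the same line received the pulse without either arrest. The sources used here do not say whether the named minute marks the start or the end of the pulse.

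For each of these 7 groups the labels list 3 samples, but the table holds 1 value per group and transcript. Every value below is therefore the authors' pooled FPKM (fragments scaled to length and to a total per library that is not stated in the sources used), with no spread between samples and no test. A gene's value is the mean over the distinct sets of values of its transcripts. Folds are ratios of FPKM + 1, the threshold for a count is 2-fold, and the share of all kept genes past the same threshold is given with the counts of host genes. Summed over all transcripts, the columns ranged from 6.24e+06 FPKM at 0 minutes to 1.06e+07 FPKM at 105 minutes, so a gene that kept its share of the labelled RNA would still be higher at 105 minutes. Counts and directions were therefore recomputed with the 7 columns set to equal medians, to equal sums and to one distribution (quantile normalization). For many of these recomputed counts the share of all kept genes is not given beside them. Unlabelled and spike-in samples were not analysed here as groups, and it is not stated if spike-in libraries of the asynchronous culture were pooled into its column, so the values show levels relative to other captured RNA, with no background beside them, and in bulk samples fewer transcribing cells and less labelled RNA per cell cannot be told apart. The liver markers ALB, AFP, APOA1, APOB, TTR and SERPINA1 were present, 6 of 6, with a summed level of 754 to 2498 FPKM during release and 12142 FPKM in the asynchronous culture. The 4 blood markers summed to 18.2 to 57.6 FPKM during release and 12.5 in the asynchronous culture, with HBB at 0 in 6 of 7 groups, and the 4 stroma and endothelium markers to 48.3 to 72.7 FPKM during release and 46.0 FPKM in the asynchronous culture. The part of these markers in the differences between release and the asynchronous culture was not tested.

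Small nucleolar RNAs (snoRNAs) guide the chemical modification of ribosomal RNA, and in vertebrates most are cut from the introns of longer transcripts. Box C/D snoRNAs, named SNORD, guide ribose methylation, and box H/ACA snoRNAs, named SNORA, guide the conversion of uridine to pseudouridine. In the genes considered here the introns carry the snoRNAs and the spliced exons are not known to encode a protein, and several of the spliced RNAs are removed from the cytoplasm by nonsense-mediated decay, which is coupled to translation. Many snoRNA hosts, like ribosomal protein genes, start transcription at a C within a run of pyrimidines, the terminal oligopyrimidine or TOP start. In nascent RNA a host gene reports its transcription and its introns as well as its spliced product.

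The start regions of 5 host genes are shown because 3 of them hold the letters TATATAAG before the start and a C with a pyrimidine run at the annotated start, while the windows of SNHG1 and SNHG16 hold neither exact pattern at these places. Each is a window of 90 bases, 60 before and 30 from the annotated RefSeq start in assembly GRCh38.p14, read on the gene's own strand. Capitals mark the letters TATATAAG before the start, and at the start a C followed by at least 4 C or T bases.
SNHG5: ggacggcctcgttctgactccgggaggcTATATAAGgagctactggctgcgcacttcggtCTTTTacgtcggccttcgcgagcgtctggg
SNHG12: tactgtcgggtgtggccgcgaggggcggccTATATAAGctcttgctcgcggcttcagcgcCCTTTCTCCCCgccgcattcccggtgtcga
ZFAS1: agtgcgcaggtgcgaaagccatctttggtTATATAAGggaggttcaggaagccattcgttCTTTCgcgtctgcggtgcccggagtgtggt
SNHG1: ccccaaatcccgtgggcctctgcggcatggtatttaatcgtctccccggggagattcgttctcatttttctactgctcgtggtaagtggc
SNHG16: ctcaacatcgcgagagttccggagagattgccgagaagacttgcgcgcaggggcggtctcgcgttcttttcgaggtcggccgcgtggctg
The windows lie at chr6:85678704-85678793 on the minus strand for SNHG5, chr1:28581844-28581933 on the minus strand for SNHG12, chr20:49278582-49278671 on the plus strand for ZFAS1, chr11:62855856-62855945 on the minus strand for SNHG1 and chr17:76557704-76557793 on the plus strand for SNHG16. TATATAAG began 32 bases before the start in SNHG5, 30 in SNHG12 and 31 in ZFAS1. The pyrimidine run was 5 bases long in SNHG5, 11 in SNHG12 and 5 in ZFAS1.

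Promoter windows of RefSeq were found for 9 of the 10 genes and searched for 8, not for SNHG6 or for SNHG15. Searched on both strands over the whole RefSeq window, TATATAAG, a motif picked after the windows were seen, occurred in 185 of 27305 promoters (0.678%) and in 3 of the 8 host genes. The pyrimidine start was found in 1104 promoters (4.04%) and in the same 3 host genes. This match was required exactly at the annotated base. Pyrimidine runs a few bases away, as in the windows of SNHG8 and SNHG16, were not counted. A host gene without the match is therefore not shown to lack such a start. TATATAAG on the gene's own strand before the start together with the pyrimidine start was found in 8 promoters (0.0293%), 3 of them SNHG5, SNHG12 and ZFAS1. As TATATAAG was picked from windows already seen, its presence in these 3 was fixed beforehand. The shares of promoters with it therefore measure no enrichment among the host genes. TATAAA was in 12.0% of promoters and in SNHG1, CCAAT in 35.7% and in DANCR, GAS5 and SNHG5, GGGCGG in 44.6% and in 7 of the 8, all but GAS5, and CACGTG in 7.43% and in 0 of the 8. The annotated start coincided with a start of the deposited transcripts for SNHG5 and ZFAS1 and lay 55 bases from it for SNHG12, 18 for SNHG1, 6 for SNHG16 and 1058 for GAS5. These matches describe letters in a window and say nothing of a bound factor.

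Labelled host RNA was abundant in all 7 groups. SNHG1, the host of 8 snoRNAs with entries in the table, was the highest of the 10 in every group, between 3081 FPKM at 0 minutes and 5473 FPKM at 80 minutes, within the top 0.318% of kept genes throughout. ZFAS1, an antisense RNA transcribed away from the start of ZNFX1, ranged from 2682 to 3859 FPKM during release and was next in level in every group. GAS5, a transcript first found in growth-arrested cells, and SNHG5 followed at most times. SNHG16 was the lowest at 0 minutes, 346 FPKM, and SNHG8 the lowest at 165 minutes, 439 FPKM. The 10 genes held 0.392% of the FPKM summed over kept genes at 0 minutes, 0.451% at 40 and 0.432% at 80 minutes. That share was 0.347% at 105, 0.325% at 165 and 0.428% at 300 minutes, with 0.470% for the asynchronous culture. Their joint share was thus lowest at 165 minutes, where 8 of the 10 stood below their own value at 80 minutes.

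At 0, 40, 80, 105, 165 and 300 minutes of release SNHG8 measured 524, 784, 1170, 806, 439 and 577 FPKM, against 1326 FPKM in the asynchronous culture. SNHG12 measured 541, 695, 1125, 777, 499 and 647 FPKM at those times, against 912 asynchronously, and SNHG5 measured 1307, 1923, 2874, 2202, 1240 and 1464 FPKM, against 1973. These 3 genes had a single high point at 80 minutes and their lowest value at 165 minutes, as deposited and under each of the 3 other scalings. DANCR measured 729, 1118, 1587, 1226, 784 and 1528 FPKM, against 1956 asynchronously, a low point at 165 minutes followed by a return. GAS5 measured 1425, 1918, 3278, 2298, 2239 and 2815 FPKM, against 2714, and SNHG6 measured 593, 775, 1389, 991, 948 and 1122 FPKM, against 1192. Both had the high point at 80 minutes and a shallower low at 165 minutes. SNHG1 measured 3081, 4435, 5473, 4724, 3953 and 3939 FPKM, against 3929, and ZFAS1 measured 2682, 3709, 3427, 2954, 3088 and 3859 FPKM, against 3853.

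**Figure D1:**
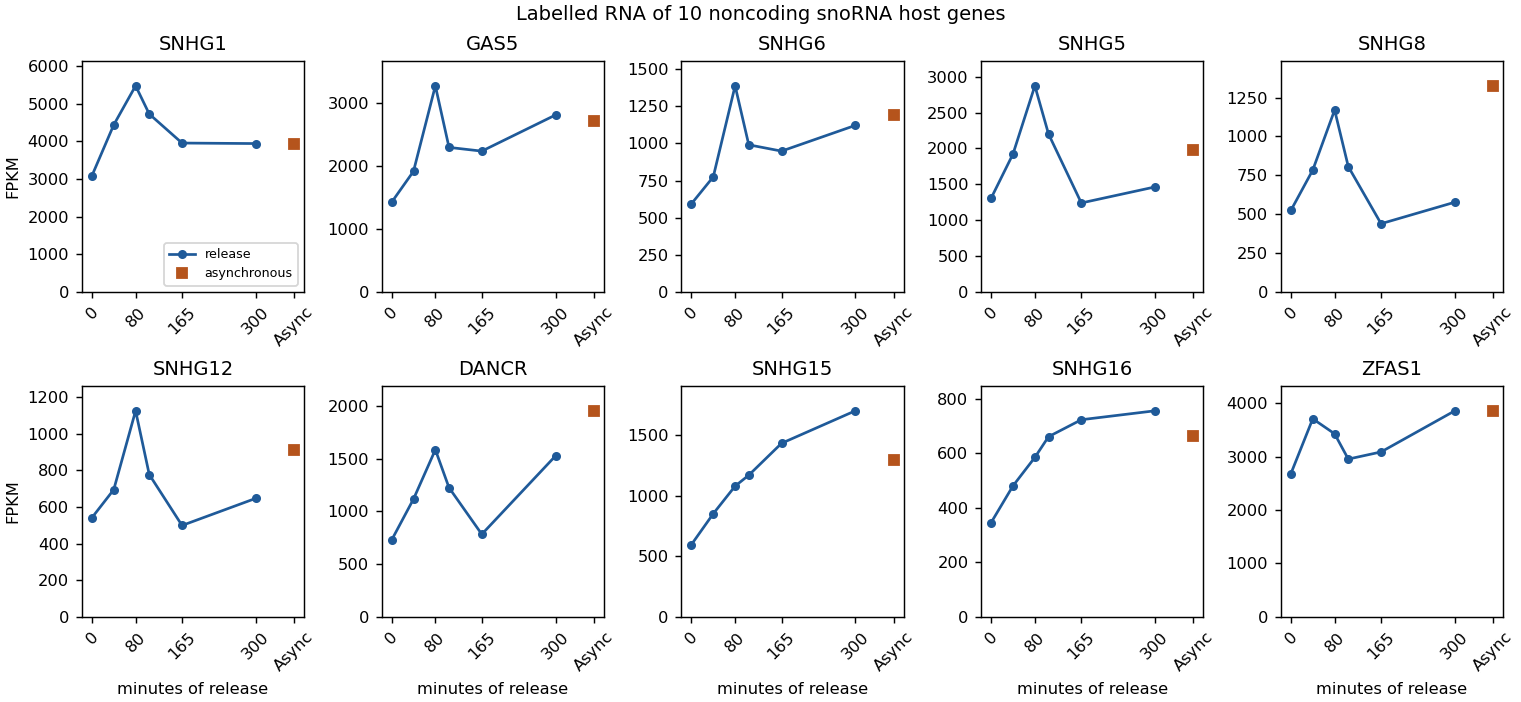
FPKM of each host gene (vertical axis, own scale starting at 0) against minutes of release, as blue points joined by lines, with the asynchronous culture as a square at the right; each point is the authors' pooled value, with no error. The upper row and the left pair of the lower row are highest at 80 minutes of release, SNHG15 and SNHG16 are higher at each successive time, and ZFAS1 has a first high value at 40 minutes.

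Against the asynchronous culture, all 10 host genes were lower at 0 minutes, with a median log2 ratio of -0.93 against -0.14 over all kept genes. Over the 17522 genes with at least 10 FPKM in 3 or more groups, nearer the host genes in level, the median was -0.40. DANCR, the host of SNORA26 and an RNA known for restraining differentiation, stood at 729 FPKM at 0 minutes against 1956 FPKM in the asynchronous culture, 2.68-fold lower. SNHG8 stood at 524 against 1326 FPKM, 2.53-fold lower, SNHG15 at 595 against 1291 FPKM, 2.17-fold lower, and SNHG6 at 593 against 1192 FPKM, 2.01-fold lower. These 4 passed the 2-fold threshold, beside 19% of all kept genes, and 0 were 2-fold higher, beside 14.1%. The least distant were SNHG1, at 3081 against 3929 FPKM, and ZFAS1, at 2682 against 3853 FPKM. The count depends on the scale: it was 1, DANCR, with columns set to equal medians and 0 with equal sums or quantile normalization, and the sign for SNHG1 turned to 0.01 and 0.13 with equal medians and equal sums. Of all 22936 kept genes, 2463 were at least 2-fold lower with equal medians, 2007 with equal sums and 2737 with quantile normalization.

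At 40 minutes all 10 were higher than at 0 minutes by a narrow range of log2 ratios, 0.36 for SNHG12 to 0.62 for DANCR, with a median of 0.49 against 0.10 over all kept genes, and all 10 were higher under each of the 3 other scalings too. None passed 2-fold in either direction, beside 3.24% of kept genes higher and 2.05% lower. DANCR was at 1118 FPKM at 40 minutes against 729 at 0 minutes, and ZFAS1 at 3709 against 2682. From there the genes parted. Between 80 and 40 minutes the log2 ratio was 0.84 for SNHG6, the host of SNORD87, and 0.77 for GAS5, but -0.11 for ZFAS1, the only 1 of the 10 below 0, and again 0 of the 10 passed 2-fold, beside 13.5% higher and 2.72% lower. With equal sums SNHG1, SNHG15 and SNHG16 also lay on the lower side in this comparison, at -0.16, -0.12 and -0.18. SNHG15 and SNHG16 did so with quantile normalization, at -0.17 and -0.31, and SNHG16 with equal medians, at -0.02.

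At 80 minutes 6 of the 10 host genes stood at least 2-fold above their 0 minute value, beside 20.1% of all kept genes, and 0 stood below, beside 2.66%. SNHG6 was at 1389 FPKM at 80 minutes against 593 at 0 minutes, 2.34-fold higher, and GAS5 at 3278 against 1425 FPKM, 2.30-fold higher. SNHG8 was at 1170 against 524 FPKM, SNHG5 at 2874 against 1307, DANCR at 1587 against 729 and SNHG12 at 1125 against 541. Below the threshold were SNHG15 at 1.81-fold, SNHG1 at 1.78-fold, SNHG16 at 1.69-fold and ZFAS1 at 1.28-fold. The members' median log2 ratio was 1.09, against 0.31 over all kept genes, a difference of 0.78. Over the 17522 genes with at least 10 FPKM in 3 or more groups the median was 0.50. The column totals were 1.04e+07 FPKM at 80 minutes and 6.24e+06 FPKM at 0 minutes, and with equal medians, equal sums or quantile normalization 0 of the 10 passed 2-fold, and ZFAS1 turned to -0.05, -0.40 and -0.22. SNHG15 and SNHG16 turned as well with quantile normalization alone, to -0.03 and -0.17.

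**Figure D2:**
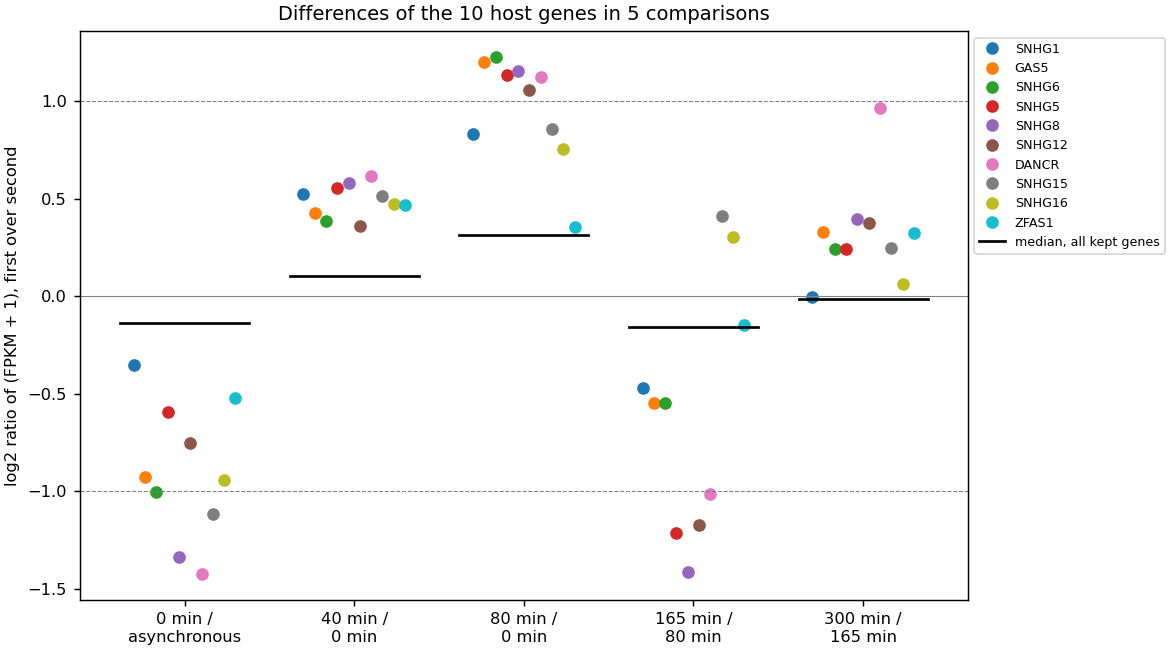
Log2 ratio of FPKM + 1, first group over second (vertical axis), for each of the 10 host genes (coloured points) in 5 comparisons (horizontal axis); black bars are medians over all kept genes and dashed lines mark 2-fold. The points lie together at 40 over 0 minutes, between 0.36 and 0.62, and spread at 165 over 80 minutes from -1.41 for SNHG8 to 0.41 for SNHG15.

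As deposited, the time of the highest release value was 80 or 300 minutes in each host gene. For GAS5, SNHG1, SNHG5, SNHG6, SNHG8, SNHG12 and DANCR, 7 of 10, it was 80 minutes, beside 23.1% of all kept genes. For SNHG15, SNHG16 and ZFAS1 it was 300 minutes, beside 21.1% of kept genes. Some of these times rest on near values, with no spread to judge them. ZFAS1 was at 3859 FPKM at 300 minutes and 3709 at 40, and DANCR at 1587 FPKM at 80 minutes and 1528 at 300. With equal medians the same 7 were highest at 80 minutes and ZFAS1 at 40. With equal sums 80 minutes remained highest for SNHG5, SNHG6, SNHG8 and SNHG12, and with quantile normalization for SNHG1, SNHG5, SNHG8 and SNHG12, 4 each. With equal sums SNHG1 and ZFAS1 were highest at 40 minutes, and GAS5 and DANCR at 300 minutes. With quantile normalization GAS5, SNHG6, DANCR and ZFAS1 were highest at 300 minutes. SNHG15 and SNHG16 were highest at 300 minutes as deposited and under each of the scalings. At 80 minutes 5 of the 10 exceeded the asynchronous culture, SNHG5 most, at 146% of it, and SNHG1 at 139%, beside 63.5% of kept genes above that culture at this time; with equal sums it was 4 of the 10 and with quantile normalization 2, SNHG1 and SNHG5.

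After 80 minutes the 7 genes differed in level. SNHG8, the host of SNORA24, stood at 439 FPKM at 165 minutes against 1170 FPKM at 80 minutes, 2.66-fold lower. SNHG5, the host of SNORD50A and SNORD50B, was at 1240 against 2874 FPKM, 2.32-fold lower, and SNHG12, the host of 4 snoRNAs, at 499 against 1125 FPKM, 2.25-fold lower. DANCR was at 784 against 1587 FPKM, 2.02-fold lower. These 4 of 10 passed the threshold downward, beside 10.2% of kept genes, and 0 upward, beside 5.45%. GAS5 and SNHG6 were each 1.46-fold lower, SNHG1 1.38-fold lower and ZFAS1 1.11-fold lower. SNHG15 and SNHG16 were higher, with log2 ratios of 0.41 and 0.31 against a median of -0.16 over all kept genes. Unlike the comparison of 80 with 0 minutes, this one held nearly its count under the 3 other scalings: SNHG5, SNHG8 and SNHG12 passed 2-fold in each and DANCR came to -0.89 to -0.94. Of all 22936 kept genes, 2026 were at least 2-fold lower with equal medians, 1902 with equal sums and 1750 with quantile normalization. For SNHG5, SNHG8, SNHG12 and DANCR the value at 105 minutes lay between those at 80 and 165 minutes.

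At 165 minutes SNHG5, SNHG8 and SNHG12 were also below their own values at 0 minutes, with log2 ratios of -0.08, -0.26 and -0.12. These were 3 of the 10, beside 40.8% of kept genes, a larger share. With equal medians, equal sums and quantile normalization 5, 6 and 7 of the 10 were below, these 3 among them. The share of all kept genes was not computed under those scalings, so these counts cannot be set beside it. SNHG8 was at 33.1% of its asynchronous level at 165 minutes, DANCR at 40.1%, SNHG12 at 54.7% and SNHG5 at 62.9%. Of the 10, 2 were at least 2-fold below the asynchronous culture at 165 minutes, SNHG8 and DANCR, beside 8.82% of kept genes, and 0 at least 2-fold above it, beside 11.4%. SNHG12 joined the 2 with equal sums and quantile normalization. SNHG1 stood at 101% of its asynchronous level, SNHG15 at 111% and SNHG16 at 109%.

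At 300 minutes the host genes stood at different distances from the asynchronous culture. GAS5 was at 104% of it, SNHG1 at 100.2%, ZFAS1 at 100.1% and SNHG6 at 94.2%. SNHG15 was at 132%, with 1699 FPKM at 300 minutes against 1291 FPKM in the asynchronous culture, and SNHG16 at 114%. SNHG8 remained lowest of the 10 at 43.5%, with 577 against 1326 FPKM, the only 1 at least 2-fold lower, beside 8.57% of kept genes; 0 were higher, beside 9.84%. DANCR differed most between the last 2 times, at 1528 FPKM at 300 minutes against 784 at 165 minutes, 1.95-fold higher, where 96.7% of kept genes had a smaller log2 ratio; 0 of the 10 passed 2-fold there in either direction, beside 3.04% of kept genes higher and 4.10% lower. Set against 80 minutes, SNHG8 alone was at least 2-fold lower at 300 minutes, at 2.03-fold, beside 13.8% of kept genes, 0 were higher, beside 8.12%, and the first count was 0 under the 3 other scalings; SNHG5 was 1.96-fold lower. Set against 0 minutes, SNHG15, DANCR and SNHG16 were 2.85-fold, 2.10-fold and 2.18-fold higher at 300 minutes, 3 of 10 beside 18.9% of kept genes, and 0 were lower, beside 8.82%. That count of 3 was 1, SNHG15, with equal medians and 0 with equal sums or quantile normalization, while SNHG8 stayed at least 2-fold below the asynchronous culture under all 3.

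SNHG15, the host of SNORA9 and known as a short-lived RNA, and SNHG16, the host of SNORD1A, SNORD1B and SNORD1C, were higher at each successive time, a pattern of 4.23% of kept genes, which SNHG15 kept with equal medians and neither kept with equal sums or quantile normalization. SNHG15 was at 595, 850, 1078, 1168, 1431 and 1699 FPKM at the 6 release times, against 1291 in the asynchronous culture. SNHG16 was at 346, 481, 586, 662, 724 and 757 FPKM, against 666 in asynchronous cells. Both passed the asynchronous level by 165 minutes, although their log2 ratios to it were -0.02 and -0.04 with equal sums and -0.07 and -0.09 with quantile normalization. Over the 7 groups their log2 profiles had a Pearson correlation of 0.98, and those of GAS5 and SNHG6 0.99, SNHG5 and SNHG12 0.95, and SNHG8 and SNHG12 0.94. SNHG5 and SNHG15 were the least alike, at 0.01. These correlations are descriptions over 7 pooled values that share their columns' totals.

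Ratios between 2 host genes within a group need no scaling between groups. The pairs were not planned. SNHG16, the reference of most ratios here, was itself at 724 FPKM at 165 minutes against 586 at 80 minutes. A low ratio to it at 165 minutes therefore includes its own higher value. SNHG5 to SNHG16 was 3.77 at 0 minutes and 4.91 at 80 minutes. At 165 and 300 minutes it was 1.71 and 1.93, and the asynchronous culture had 2.96. SNHG8 to SNHG15 was 0.881 at 0 minutes, 1.09 at 80, 0.307 at 165 and 0.340 at 300 minutes, with 1.03 in asynchronous cells, a range of 3.54-fold. For SNHG5, SNHG8, SNHG12 and DANCR the highest and lowest ratio to SNHG16 differed by 2.71-fold to 3.30-fold, and for GAS5, SNHG6, SNHG1 and ZFAS1 by 1.80-fold to 1.82-fold. GAS5 to SNHG6, by contrast, stayed between 2.28 and 2.51 over all 7 groups, and SNHG15 to SNHG16 between 1.72 and 2.24. SNHG1 to ZFAS1, the 2 most abundant, was 1.60 at 80 and 105 minutes, 1.15 at 0 minutes and 1.02 in asynchronous cells.

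**Figure D3:**
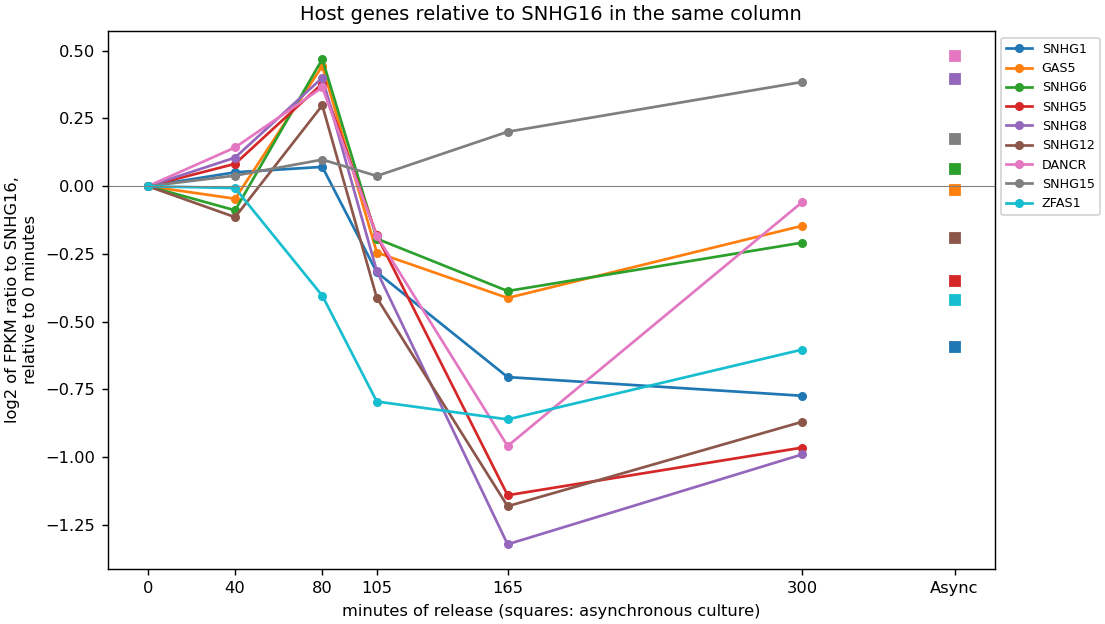
Log2 of each host gene's FPKM ratio to SNHG16 in the same group, set to 0 at 0 minutes (vertical axis), against minutes of release (lines), with the asynchronous culture as squares; no scaling between groups enters. SNHG5, SNHG8, SNHG12, DANCR, GAS5, SNHG6 and ZFAS1 have their lowest ratio at 165 minutes, SNHG1 at 300 minutes and SNHG15 at 0 minutes. SNHG8 to SNHG16 is 0.606 at 165 minutes against 1.51 at 0 minutes. SNHG16 was itself higher at 165 than at 80 minutes, so a low ratio need not be a low level. ZFAS1, for example, measured 3088 FPKM at 165 minutes and 2682 at 0 minutes.

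The entries include introns. Of 655 pairs of isoforms in the table that share a genomic span but differ in spliced length, 636 (97.1%) had equal values within a relative tolerance of 0.0001, so values follow the span of the gene rather than its exons. Of the annotated span, exons make up 8.54% in ZFAS1, 15.5% in GAS5, 38.3% in SNHG1 and 60.3% in SNHG8, by GENCODE release 29. Fragments of an intronic snoRNA therefore count for its host as well, and a likeness between a snoRNA and its host is in part the same fragments. Genes on the opposite strand overlap some hosts, ZBTB37 overlapping GAS5 by 801 bases, MCMDC2 SNHG6 by 365 and ZNFX1 ZFAS1 by 249. The libraries are stranded per the labels, and the sources used here do not say if the counting used strand, so the values of these pairs are uncertain.

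RefSeq places 36 snoRNA genes inside the 10 hosts, and 25 of them, in 8 hosts, had a kept entry of their own; SNHG5 and SNHG6 had none. SNHG1 had 8, GAS5 5 and SNHG12 4. Of the 25, 13 stood above their host's FPKM in every group. SNORA44 in SNHG12 had the highest ratios, 1.97 to 2.84, and SNORD1B in SNHG16 the lowest, 0.392 to 0.666. In SNHG1 the 8 ratios differed from one another more than with time: SNORD30 stayed between 1.66 and 1.87 and SNORD25 between 0.747 and 1.01. At 80 against 0 minutes 13 of the 25 passed 2-fold upward and 0 downward, and their median log2 ratio was 1.01, beside 20.1% and 2.66% of all kept genes as for the hosts. The highest release value was at 80 minutes for 17 of the 25, and 19 shared the time of their host. The ratio of SNORA24 to its host SNHG8 was highest at the host's low point, at 1.14 at 165 minutes against 0.855 at 80 minutes. These entries cover RNAs of 65 to 134 bases, which the library may recover unevenly. Being far shorter than their hosts, they rest on fewer fragments. Their ratios, that of SNORA24 among them, thus carry a larger counting error than host values, and that error was not computed.

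**Figure D4:**
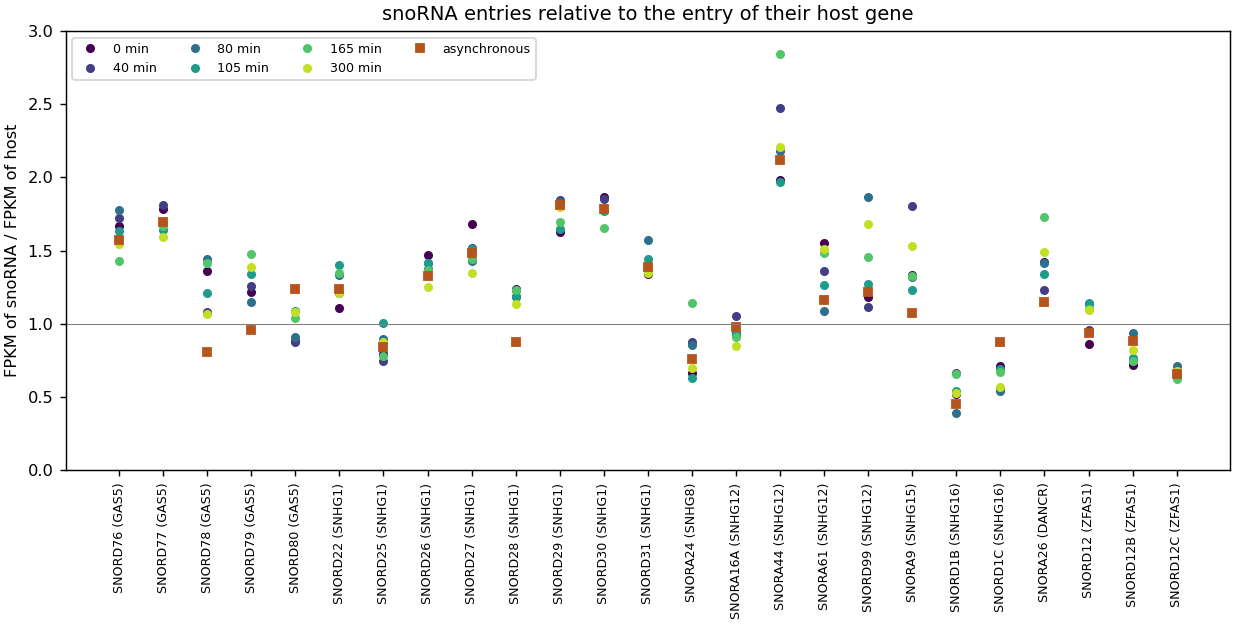
FPKM of each of the 25 snoRNA entries divided by the FPKM of its host in the same group (vertical axis, linear from 0), by snoRNA with its host in brackets; circles are release times from dark to light and squares the asynchronous culture. SNORD1B stays at or below 0.666 and SNORA44 at or above 1.97, and the line marks equality with the host.

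Other gene lists give the setting for the host genes; they were chosen with earlier results of these data known. Their counts are of the values as deposited, and are read beside the shares of all kept genes: at 80 against 0 minutes 20.1% at least 2-fold higher and 2.66% lower, and 23.1% highest at 80 minutes. Of 23 other noncoding snoRNA hosts listed, 14 had kept entries. Their highest release value was at 80 minutes in 5 of 14, at 300 minutes in 4, at 165 minutes in 3, and at 0 and 40 minutes in 1 each. At 80 against 0 minutes 5 of these 14 were at least 2-fold higher and 1 lower, the largest being SNHG10 at 619 against 197 FPKM, and the 1 lower was SNHG27, at 0.944 against 4.25 FPKM, near the filter. SNHG9 had a low point like that of SNHG8, at 32.7 FPKM at 165 minutes against 124 FPKM at 80 minutes. SNHG17 and EPB41L4A-AS1 were higher at each successive time as SNHG15 was, SNHG17 measuring 396 FPKM at 0 minutes and 958 at 300 minutes. SNHG29 was highest at 40 minutes, at 1275 FPKM against 826 at 0 minutes, the time of the first high value of ZFAS1.

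Protein-coding snoRNA hosts, most of them genes of ribosomal proteins and translation factors, had their highest release value at 80 minutes in 29 of 48 genes. At 80 against 0 minutes 22 of the 48 passed 2-fold upward and 0 downward, and their median log2 ratio was 0.94. RPL13 was at 1146 against 330 FPKM, 3.47-fold higher, and HSPA8, a chaperone gene, at 2738 against 3001 FPKM. Of the 48, 38 stood above the asynchronous culture at 80 minutes, where 5 of the 10 noncoding hosts did. Proteins of the snoRNA particles and their assembly factors were at least 2-fold higher at 80 minutes in 6 of 18 genes and lower in 0. Among them NHP2, which binds box H/ACA snoRNAs, was at 422 against 146 FPKM, and SNU13, which binds box C/D snoRNAs, at 624 against 247 FPKM. Their highest release value was at 80 minutes in 11 of 18.

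Factors of nonsense-mediated decay and the exon junction complex were at least 2-fold higher at 80 against 0 minutes in 4 of 18 genes and lower in 0, with 5 of 18 highest at 80 minutes, beside 20.1% and 23.1% of all kept genes. EIF4A3, the helicase of the exon junction complex, was at 1482 against 496 FPKM. Long noncoding RNAs without snoRNAs, 16 of 18 listed being kept, had 2 genes at least 2-fold higher and 0 lower at 80 against 0 minutes, and 5 of 16 highest at 80 minutes. Their median log2 ratio was 0.19, below the 0.31 of all kept genes, where that of the 10 host genes was 1.09; the difference between the lists was not tested. At 0 minutes against the asynchronous culture the lists had 5 of 14, 6 of 48, 4 of 18, 5 of 18 and 6 of 16 genes at least 2-fold lower, in the order given, and the host genes 4 of 10, beside 19% of all kept genes. The protein-coding hosts lay under that share and the snoRNA particle proteins near it. SNHG11 was 2.89-fold lower at 0 minutes, RPSA 2.64-fold, ZNHIT6 2.50-fold and SMG9 3.26-fold. Among the long noncoding RNAs HULC, at 79.8 FPKM at 0 minutes against 1356 FPKM in the asynchronous culture, was 16.8-fold lower and MIR17HG 3.90-fold lower, while MALAT1, at 4917 against 2408 FPKM, was the 1 gene at least 2-fold higher.

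**Figure D5:**
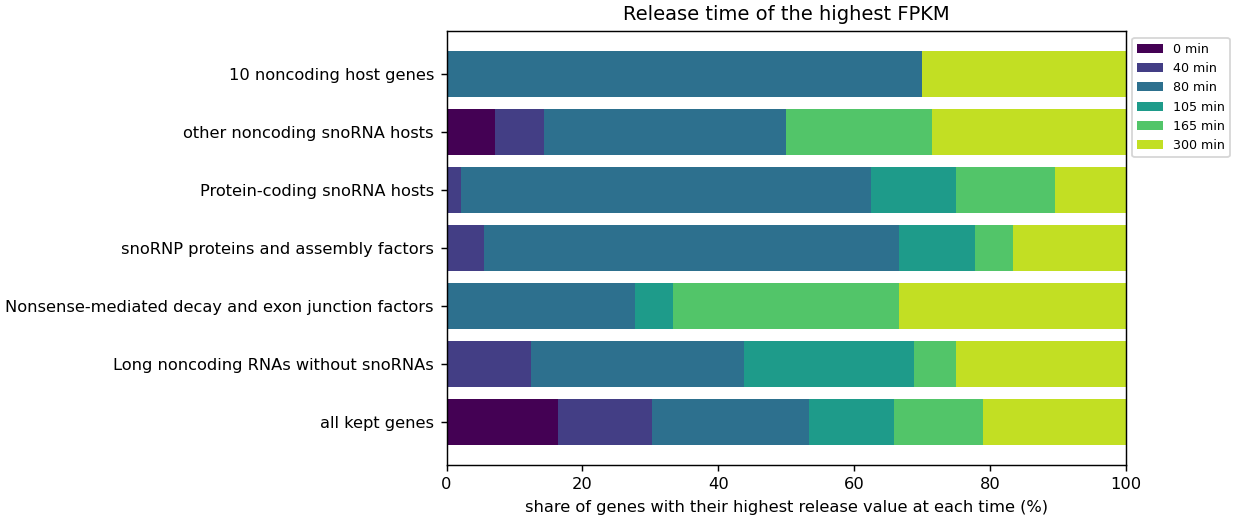
Share of genes (horizontal axis, percent) whose highest release FPKM fell at each of the 6 release times (colours), for the 10 host genes, 5 gene lists and all kept genes. The segment for 80 minutes covers 7 of the 10 host genes, 5 of 14 other noncoding hosts and 29 of 48 protein-coding hosts. It covers 5 of 16 long noncoding RNAs without snoRNAs and 23.1% of all kept genes.

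The genes whose log2 profile over the 7 groups was most like the mean of the 10 host genes, among 17258 genes with a mean of at least 10 FPKM, were ZKSCAN2 at a Pearson correlation of 0.99, YJU2B at 0.98, DOK1 at 0.98, ZNF672 at 0.98 and TSSK6 at 0.98. ZKSCAN2, a zinc finger gene, measured 33.5 FPKM at 0 minutes, 81.2 at 80, 48.1 at 165 and 61.6 at 300 minutes, with 79.9 in asynchronous cells. Of the host genes, SNHG6 and GAS5 were closest to the mean of the other members, at 0.93 and 0.92, and SNHG15 farthest, at 0.51.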

How the data were processed

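The authors deposited FPKM for RefSeq transcripts, 1 column per group, per the file headers. Per the submitters' processing notes, TopHat, Bowtie2 2.2.9, bedtools and bcl2fastq were used with build hg19. For the pooling of samples, the use of strand and any background subtraction, the method is not given in the sources used. Through a RefSeq table of GRCh38.p14, 47123 of 48205 transcripts (97.8%) matched a symbol. Distinct sets of values were averaged per gene, and genes reaching 1 FPKM in 3 or more groups were kept, leaving out 1302. Ratios used a pseudocount of 1 FPKM, which understates differences of low genes. The members and lists were chosen with earlier results of these data known. All members were named, and from each list some of the 2 largest ratios in each direction; the profiles of SNHG9, SNHG17 and SNHG29, and SNHG27 and EPB41L4A-AS1, were chosen after their values were seen. The planned limma test needs values per library and was not run, so no p-value is given. Counting by size was tried on simulated columns of equal scale, with planted changes beyond the threshold. That checks the counting step only and cannot test the scaling between groups. Low values of short RNAs repeated at 2.15 to 4.05 FPKM times kilobase, but 27.2% to 40.5% lay below that step, so whole reads were not recovered. If a step is 1 read, the largest counting error of a host value is 8.32%, for SNHG8 at 0 minutes; it covers counting alone. Alternatives were 2 pseudocounts, 3 scalings, 2 ways to join transcripts and 2 filters. Python 3.11.15, numpy 2.4.6, pandas 2.3.3 and matplotlib 3.10.9 were used.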

Additional observations from a re-analysis of the deposited data

How the results depend on the processing

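The pseudocount, the filter and the way of joining transcripts changed no count of host genes by over 1.5 times, but scaling between groups did. The stricter filter, at least 10 FPKM in 3 groups, did move the values over all genes. It left 17522 genes, with a median of -0.40 at 0 minutes against the asynchronous culture and 0.50 at 80 against 0 minutes. Of these genes, 4092 were at least 2-fold lower in the first comparison and 4276 at least 2-fold higher in the second. Host genes at least 2-fold below the asynchronous culture at 0 minutes numbered 4, and 0 with quantile normalization, 1 with equal medians and 0 with equal sums. Those at least 2-fold higher at 80 than at 0 minutes numbered 6, and 0 under each of the 3. Those at least 2-fold lower at 300 than at 80 minutes numbered 1, and 0 under each of the 3. Those highest at 80 minutes numbered 7, and 4 with quantile normalization and with equal sums. Those at least 2-fold lower at 165 than at 80 minutes, a comparison added after the data were seen, numbered 4, and 3 under each scaling, SNHG5, SNHG8 and SNHG12, which also kept their highest value at 80 and their lowest at 165 minutes. The median of all kept genes at 80 against 0 minutes was 0.31 as deposited and -0.07, -0.06 and -0.40 with quantile normalization, equal medians and equal sums, where 20.1% higher and 2.66% lower genes became 1630 and 1098, 2123 and 1404, and 1098 and 3837 of 22936. At 0 minutes against the asynchronous culture it was -0.14, and 0.01, 0.19 and 0.31. No paired analysis was possible because the table holds 1 pooled column per group; leaving out a replicate could not be run for the same reason. Which scaling reflects the RNA per cell was not tested.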

Other observations

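Of the host genes, 3 have a protein-coding neighbour in the table that starts within 1000 bases on the opposite strand, and the members of such a pair did not keep a fixed ratio. SNHG1 and SLC3A2, which encodes the heavy chain of an amino acid transporter, start 188 bases apart in GRCh38. At 0 minutes against the asynchronous culture SNHG1 was lower, with a log2 ratio of -0.35, and SLC3A2 higher, with 0.38. These directions are of the values as deposited and depend on scaling: SNHG1 was at 0.01 with equal medians and 0.13 with equal sums. The ratio of SNHG1 to SLC3A2 was 3.04 at 0 minutes, 2.59 at 80, 2.27 at 165 and 2.46 at 300 minutes, and 5.06 in the asynchronous culture. ZFAS1 and ZNFX1 start 248 bases apart and overlap, and their ratio was 6.80 at 0 minutes, 4.10 at 105 and 6.53 at 300 minutes, and 12.5 in the asynchronous culture. GAS5 to ZBTB37 was 37.5 at 0 minutes, 49.2 at 80 minutes and 47.1 in the asynchronous culture. The ratios of a host gene to its neighbour within a group need no scaling between groups, and each rests on 1 pooled value per gene and group.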
